A study of Mus musculus with 18 samples.

Results

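Red pulp macrophages clear aged red cells in the spleen and return their iron to the body. The transcription factor Spi-C drives their development, heme oxygenase opens the heme ring of swallowed haemoglobin, and ferroportin exports the iron that is released. Related resident macrophages in the bone marrow support erythroblasts and clear their nuclei, and both populations make complement C1q and receptors for dying cells. The genes described here are 10 such genes, chosen by symbol: Spic, Vcam1, Adgre1, Axl, Cd5l, C1qa, C1qb, C1qc, Slc40a1 and Hmox1. All 10 were listed among the 14423 genes of the bone marrow comparison and among the 21830 genes of the spleen comparison.

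RNA came from cells suspended from bone marrow or spleen of C57BL/6 mice, and QuantSeq libraries, which read a transcript next to its poly(A) tail, were sequenced. Bone marrow was compared between 4 libraries of Cgas-/- mice, which lack the DNA sensor cGAS, and 4 of mice called dKO, which are Trex1-/- and Sting1gt/gt and so lack both the exonuclease TREX1 and functional STING. Spleen was compared between 5 libraries from dKO hosts given Cgas-/- marrow and 5 from dKO hosts given dKO marrow, taken 12 weeks after lethal irradiation and transplantation. All spleen hosts were thus dKO, and by these genotypes no cell of any group carried both cGAS and functional STING. Spleens of dKO hosts with Cgas-/- marrow can hold both proteins, but in different cells. Macrophages of a tissue can outlive irradiation and can also be replaced from the graft, and a spleen library holds RNA of both origins without telling them apart. The ages and the number of animals per library were not given in the labels. The data are the authors' DESeq2 results for each tissue, so no value per library was used and the depth of each library is unknown. In bulk RNA, fewer cells of a type and less RNA per cell cannot be told apart.

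In both tissues none of the 10 genes passed the authors' test. Across bone marrow their log2 fold changes were spread around 0, and in spleen 9 of 10 lay below 0 with a median of -0.18. The standard errors in spleen were wide for nearly all of them, since libraries of the same group differed more in these genes than in most genes of like abundance. Neutrophil and erythroid markers had such wide errors in spleen too.

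Trex1 and Cgas followed the labels. With the Cgas-/- genotype Trex1 was higher, at a log2 fold change of 1.45 (standard error 0.178, and values after ± are standard errors from here on) for bone marrow and 2.71 ± 0.199 for spleen, and Cgas was lower, at -1.13 ± 0.155 and -0.92 ± 0.217. All 4 values are from the authors' deposited tables and passed their DESeq2 test at 0.05. Trex1 shares its locus and strand with Atrip, so their reads cannot be fully separated, and a 3' tag left intact by a deletion is counted all the same. The gene of STING, listed under its older symbol Tmem173, had -0.13 ± 0.176 for bone marrow and -0.02 ± 0.0751 for spleen and did not pass in the authors' deposited tables, so its transcript level does not check the Sting1gt/gt part of the labels. In Cgas-/- bone marrow neutrophil markers summed to 980630 normalized counts and B cell markers to 3825. In spleens with Cgas-/- marrow these sums were 25324 and 15356, so neutrophil markers were the higher in both. S100a8 and S100a9, at 11548 and 9788 in those spleens, made up most of the neutrophil sum there. The order of the sums was the same in both tissues and so does not check the tissue labels. The gap was far wider in bone marrow. In spleen the authors' deposited table also called the 4 Y-linked genes Ddx3y, Uty, Eif2s3y and Kdm5d lower with Cgas-/- marrow, from -4.76 ± 0.481 for Ddx3y to -5.38 ± 0.823 for Kdm5d. For bone marrow these 4 genes were not listed. The authors' deposited table gives Xist, an RNA of female cells, a standard error of 1.65 there, so libraries within a group differed widely in it. In spleen Xist had a log2 fold change of 0.45, with an unadjusted p under 0.05 (DESeq2), and did not pass after adjustment. The spleen groups therefore differed in how much RNA of male cells they held, and the part of this in the results below was not tested.

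On GRCm38, with the GENCODE M21 annotation, the 3 C1q genes lie side by side on the minus strand of chromosome 4. C1qb is at 136880129 to 136886187, C1qc at 136889804 to 136893065 and C1qa at 136895917 to 136898803, a cluster of 18675 bases. Spic is on the minus strand of chromosome 10 (88674772 to 88685015), Vcam1 on that of chromosome 3 (116109949 to 116129688), Slc40a1 on that of chromosome 1 (45908068 to 45926523) and Axl on that of chromosome 7 (25757273 to 25788705). Cd5l is on the plus strand of chromosome 3 (87357881 to 87371073), Hmox1 on that of chromosome 8 (75093621 to 75100589) and Adgre1 on that of chromosome 17 (57358691 to 57483527). None of the 10 overlaps another annotated gene on its own strand. Vcam1 overlaps the antisense gene Gm43109 near its start, away from the end that QuantSeq reads.

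Promoters of 5 of the 10 genes (Axl, C1qb, C1qc, Cd5l and Spic) were in the RefSeq table of GRCm38.p6, each from 250 bases before to 50 bases after the start site. Those of C1qb and C1qc are shown because these neighbouring genes make chains of the same protein and had like fold changes and like spread in spleen. Capitals mark the purine-rich core GAGGAA, or TTCCTC on the other strand, which Ets factors such as PU.1 and Spi-C can bind. C1qb is read from the minus strand at chr4:136886151-136886450 and C1qc from the minus strand at chr4:136892865-136893164.
C1qb: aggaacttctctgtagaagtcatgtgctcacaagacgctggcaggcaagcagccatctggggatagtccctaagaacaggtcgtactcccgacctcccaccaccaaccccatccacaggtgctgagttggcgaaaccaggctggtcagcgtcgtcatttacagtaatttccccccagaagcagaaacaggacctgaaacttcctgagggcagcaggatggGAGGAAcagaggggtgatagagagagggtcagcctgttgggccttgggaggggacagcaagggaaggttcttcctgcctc
C1qc: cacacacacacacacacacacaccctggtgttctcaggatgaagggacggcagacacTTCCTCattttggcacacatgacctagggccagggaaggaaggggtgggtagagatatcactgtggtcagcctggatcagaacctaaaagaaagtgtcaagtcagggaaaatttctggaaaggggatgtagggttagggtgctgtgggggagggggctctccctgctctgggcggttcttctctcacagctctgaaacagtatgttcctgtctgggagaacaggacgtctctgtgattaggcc
The core was found once in each of the 2, starting 30 bases before the C1qb start site and 193 bases before that of C1qc. It was also in the Cd5l and Axl promoters, so in 4 of 5, and not in that of Spic. Of all 32851 promoters in the table, 28.3% hold it. These positions hold for the RefSeq start sites, which for Spic and C1qc lie inside the GENCODE genes given above. The Spic window, chr10:88682974-88683273, lies wholly within its gene. The antioxidant response core TGACNNNGC, searched on both strands as GCNNNGTCA too, was in 1 of the 5, that of C1qb, and in 12.4% of all promoters. A match of this kind is a description of the letters only.

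The levels are given as mean normalized counts. The authors deposited 1 mean per gene over all libraries of a tissue, and an approximate mean per group was computed from it and the fold change. QuantSeq counts do not scale with transcript length. How completely the reads of each gene were counted is unknown, so ranks and ratios between genes describe counts, not amounts of transcript. For example, the B cell genes Cd79a and Cd79b had means of 468 and 898 in bone marrow but 186 and 3742 in spleen. The tissues were normalized separately, so levels were not compared between them.

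Spic, the Ets factor that marks the red pulp lineage, was the second lowest of the 10 in bone marrow and the lowest in spleen. Its approximate group means were 56.3 in Cgas-/- and 60.4 in dKO bone marrow. In spleen they were 69.6 with Cgas-/- marrow and 80.3 with dKO marrow. Vcam1, the adhesion molecule that binds the integrin of Itga4 and Itgb1 and is also made by stromal and endothelial cells, had the highest counts of the 10 in both tissues. Its approximate group means were 1114 in Cgas-/- and 1032 in dKO bone marrow, and 999 and 1075 in spleen. Adgre1, the F4/80 antigen of mouse macrophages, was at 140 in Cgas-/- and 192 in dKO bone marrow and at 105 and 120 in spleen. This was the widest relative gap of the 10 in bone marrow.

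Axl, a receptor tyrosine kinase that takes up dying cells through its ligand Gas6, had approximate group means of 242 in Cgas-/- and 248 in dKO bone marrow. In spleen it was at 156 with Cgas-/- marrow and 193 with dKO marrow. Cd5l, a secreted scavenger protein that protects macrophages from apoptosis, was at 112 and 105 in bone marrow and at 456 and 558 in spleen. Cd5l stood at the 46.1st percentile of mean level in the bone marrow table and at the 90.9th in the spleen table, whose lists of genes differ.

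C1qa, C1qb and C1qc encode the 3 chains of C1q, which starts the classical complement pathway. In bone marrow they were close in level, with means of 222, 269 and 216 over the 8 libraries. In spleen C1qa led with a mean of 563 over the 10 libraries, against 184 for C1qb and 324 for C1qc. The ratio of C1qa to C1qb was thus 0.824 in bone marrow and 3.05 in spleen as ratios of means of normalized counts. The ratio has no error here, since values per library were not used. A difference in ratio between the tissues cannot be told from a difference in how reads were assigned to genes, and it was not tested.

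Slc40a1, the iron exporter ferroportin, which erythroid precursors also express, was at 995 in Cgas-/- and 973 in dKO bone marrow. In spleen it was at 349 with Cgas-/- marrow and 390 with dKO marrow. Hmox1, the inducible heme oxygenase, was the lowest of the 10 in bone marrow, at 13.6 and 11.1, under the mean of 20 used below as a limit for low counts. In spleen it was at 261 and 225, the only gene of the 10 with the higher value under Cgas-/- marrow. The ratio of Hmox1 to Slc40a1 was 0.0125 in bone marrow and 0.657 in spleen, with the same limits as the ratio of C1qa to C1qb.

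**Figure D1:**
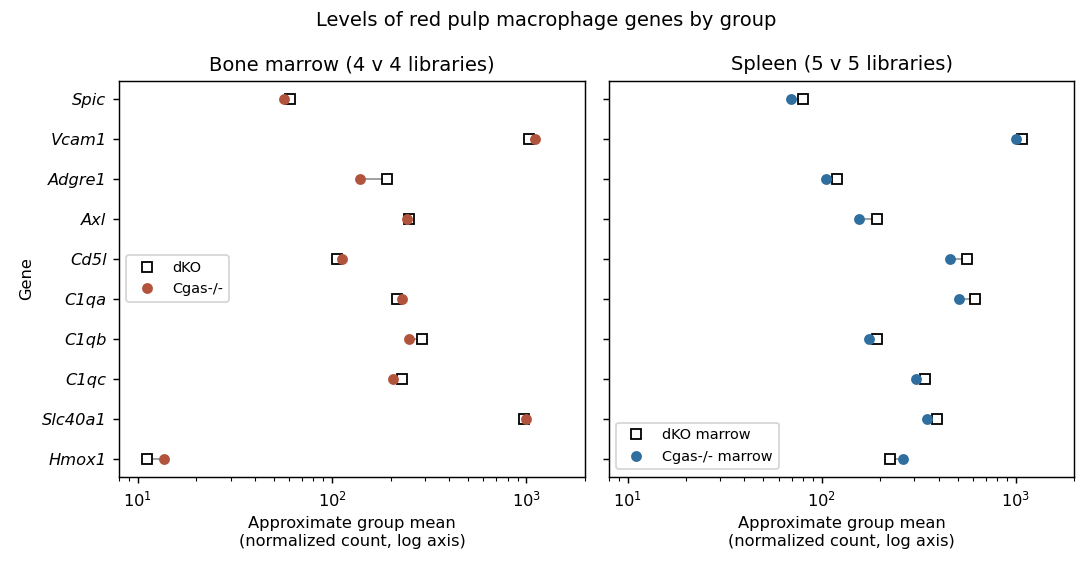
Approximate mean normalized count of each gene in each group, on a log axis, for bone marrow (left) and spleen (right). Open squares are the dKO groups and filled circles the Cgas-/- groups. The widest relative gaps in bone marrow are those of Adgre1 (140 against 192), the weakly detected Hmox1 and C1qb (249 against 289). In bone marrow 5 of 10 circles lie to the left, and in spleen 9 of 10. Of all genes with a mean of at least 20, 50.7% in bone marrow and 48.0% in spleen had a log2 fold change below 0.

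The bone marrow comparison asks how resident macrophage transcripts differ between untransplanted mice of the 2 genotypes. By the authors' deposited results, 0 of the 10 genes passed an adjusted p of 0.05, and 77 of 14423 genes (0.534%) did (DESeq2). With 5 above 0 and 5 below, their median log2 fold change was 0.00 to 2 decimals, as was that of all genes. Adgre1 had the largest difference by its error, -0.46 ± 0.171 in the authors' deposited table, which a 95% interval computed from it puts between 0.577 and 0.917 of the dKO level. It did not pass after adjustment (DESeq2 adjusted p = 0.280). No other gene of the 10 had an unadjusted p under 0.05 (0.00704 for Adgre1 under DESeq2, by the authors' deposited table), a level that 8.85% of all genes reached.

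The other genes of the lineage showed smaller differences in bone marrow. Spic had a log2 fold change of -0.10 ± 0.287, Vcam1 0.11 ± 0.222 and Axl -0.04 ± 0.228 by the authors' deposited table. Among the secreted proteins, Cd5l had 0.09 ± 0.229, C1qa 0.09 ± 0.221, C1qb -0.22 ± 0.211 and C1qc -0.16 ± 0.175 in the authors' deposited table. The chains of C1q thus had values on both sides of 0, with intervals that overlap. Slc40a1 was measured most closely, at 0.03 ± 0.102 in the authors' deposited table, and its 95% interval runs from 0.890 to 1.18 times the dKO level. Hmox1 was measured least closely, at 0.29 ± 0.596 by the authors' deposited table, with an interval from 0.544 to 2.75 times. For 9 of the 10, all but Hmox1, the interval excluded a doubling or halving.

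**Figure D2:**
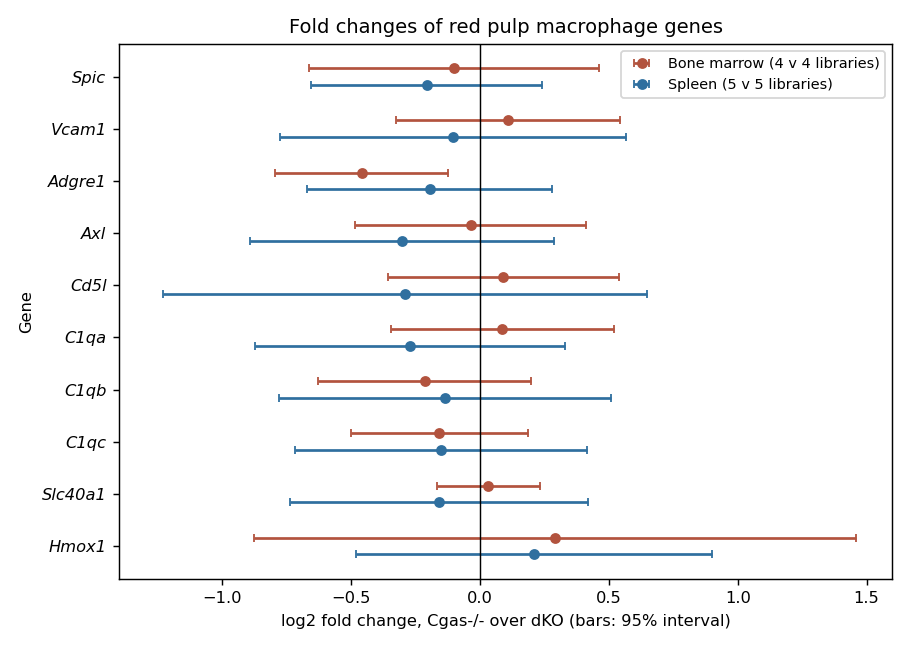
Log2 fold change of each gene (horizontal axis, Cgas-/- over dKO) in bone marrow (red, 4 against 4 libraries) and spleen (blue, 5 against 5), with bars for the 95% interval. All intervals cross 0 except that of Adgre1 in bone marrow, and that gene did not pass after adjustment over all genes.

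The spleen comparison asks whether these transcripts differ in dKO hosts by the genotype of the marrow they received. By the authors' deposited results, 0 of the 10 passed an adjusted p of 0.05 under DESeq2, against 29 of 21830 genes (0.133%). An unadjusted p under 0.05 was reached by 0 of the 10 and by 3.02% of all genes. Their median log2 fold change was -0.18, beside -0.03 over all genes of the table and 0.01 over genes with a mean of at least 20. The lowest unadjusted value among them was that of Axl (0.313 under DESeq2, by the authors' deposited table).

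By role, the values in spleen were as follows. Spic was at -0.21 ± 0.229, Vcam1 at -0.11 ± 0.343, Adgre1 at -0.20 ± 0.243 and Axl at -0.30 ± 0.301 by the authors' deposited table. Among the secreted proteins Cd5l was at -0.29 ± 0.479, C1qa at -0.27 ± 0.307, C1qb at -0.14 ± 0.329 and C1qc at -0.15 ± 0.289 in the authors' deposited table. All these lay below 0 by about 1 standard error or less. The iron genes differed in sign, with Slc40a1 at -0.16 ± 0.295 and Hmox1 at 0.21 ± 0.352 in the authors' deposited table. The 95% interval computed for Cd5l, the widest, runs from 0.426 to 1.57 times the level with dKO marrow, so a halving is inside it. For the other 9 a doubling and a halving both lay outside.

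The precision of these values follows from the spread between libraries. Besides counting error, a standard error holds the variation between libraries of 1 group, which was estimated from it as a percentage of the mean. The median spread over genes with a mean of at least 20 was 14.4% for bone marrow and 12.6% for spleen. For the 10 genes the median was 20.4% in bone marrow and 32.7% in spleen. In spleen the spread was 52.3% for Cd5l, 38.1% for Hmox1, 37.4% for Vcam1 and 31.9% for Slc40a1. The C1q chains had 33.4% (C1qa), 35.3% (C1qb) and 31.2% (C1qc), and Axl had 32.1%. Adgre1 (24.9%) and Spic (22.2%) had the narrowest spread of the 10 in spleen.

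Each standard error was then ranked among those of the 200 genes of nearest mean in the same table. In spleen 9 of the 10 had an error in the widest 5%, all but Spic, whose error exceeded that of 185 of the 200. By construction about 1 gene in 20 lies there (5.68% of genes with a mean of at least 20). The Vcam1, Slc40a1 and C1qa errors exceeded those of all 200. The Cd5l error was 5.23 times the median of its 200 neighbours. In bone marrow 4 of the 10 lay in the widest 5%, where 5.45% of all such genes do, namely Vcam1, C1qa, C1qb and Axl. Slc40a1 was near its neighbours there, at 1.11 times their median error, against 2.97 times in spleen. Passing the test at these errors needed a change of at least 1.91-fold (Spic) to 3.89-fold (Cd5l) in spleen, and of 1.30-fold (Slc40a1) to 4.51-fold (Hmox1) in bone marrow.

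**Figure D3:**
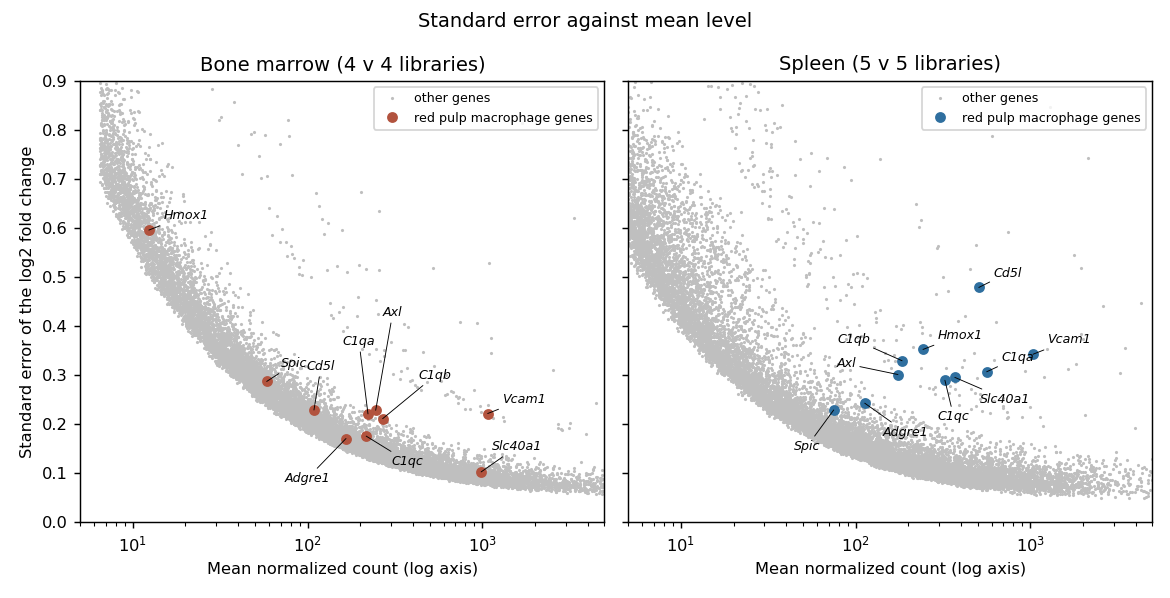
Standard error of the log2 fold change (vertical axis) against mean normalized count (log axis) for genes with a mean from 5 to 5000 and an error up to 0.9, in grey, and the 10 red pulp macrophage genes in colour. In bone marrow most of them lie in or near the band of other genes, Vcam1 well above it, and in spleen all but Spic and Adgre1 lie clearly above it.

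Other gene lists show where the wide errors in spleen lay. Of the other red pulp and resident macrophage genes with a mean of at least 20, 11 of 16 had an error in the widest 5% in spleen and 4 of 17 in bone marrow. Erythroid markers had 11 of 11 in spleen and 6 of 14 in bone marrow. Neutrophil markers had 8 of 10 and 2 of 10. Immediate early genes had 4 of 9 and 2 of 10. B cell markers had 0 of 6 in spleen and 2 of 6 in bone marrow, T cell markers 2 of 7 and 3 of 7, and monocyte markers 2 of 11 and 5 of 12. Genes that act on heme and iron in many cell types had 3 of 17 in spleen and 3 of 22 in bone marrow. Wide errors were therefore not particular to the red pulp macrophage genes, and whether the same libraries were high in all of these lists cannot be seen without values per library.

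**Figure D4:**
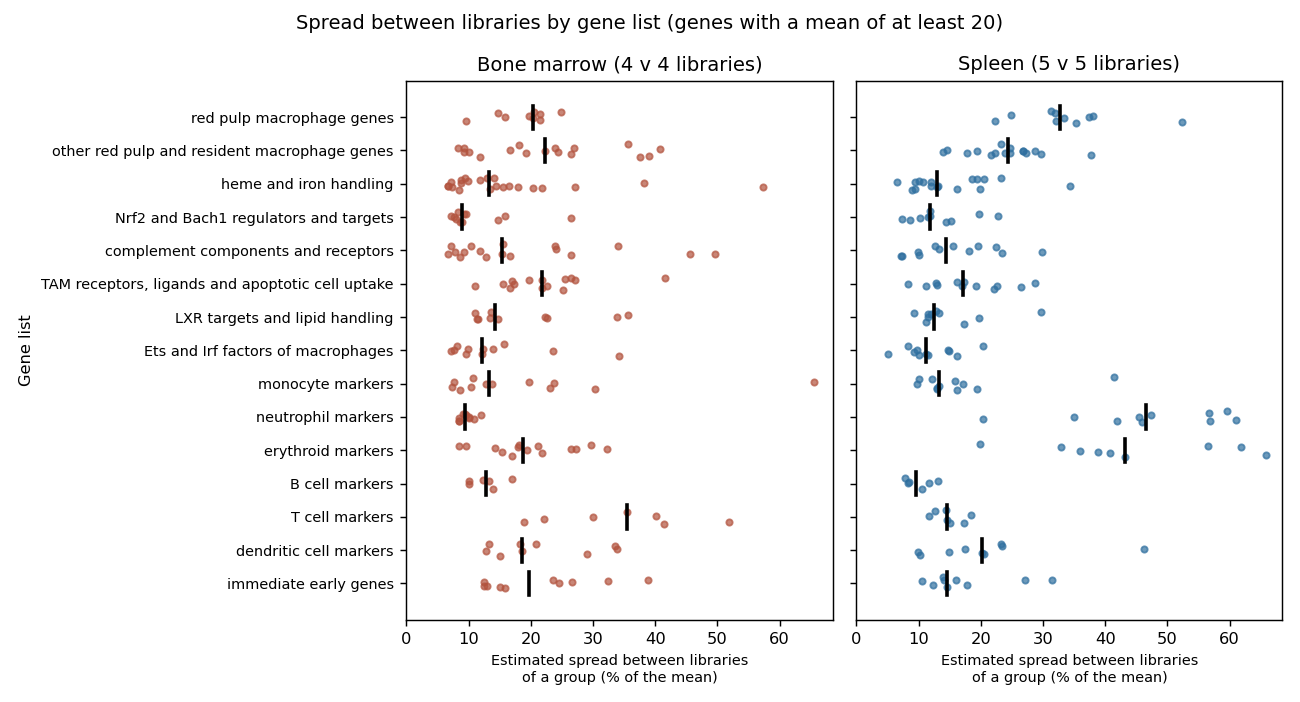
Estimated spread between libraries of a group, as a percentage of the mean, for each gene with a mean of at least 20 in each list, in bone marrow (left) and spleen (right). Black bars are medians, and in spleen those of the red pulp macrophage (32.7%), neutrophil (46.6%) and erythroid (43.2%) lists exceed that of B cell markers (9.52%).

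Whether the fold changes differed between the bone marrow and spleen comparisons was tested directly, since the comparisons share no library. Besides tissue, these comparisons differ in irradiation, transplantation and hosts, and the spleen groups differed in Y-linked RNA. The part of each in the differences was not tested. The difference of the log2 fold changes, spleen minus bone marrow, was below 0 for 7 of the 10 genes and above 0 for 3, with a median of -0.15 beside -0.01 over the 13854 genes listed for both. By a two-sided normal test with Benjamini-Hochberg adjustment over all of these, 0 of the 10 passed, and 8 genes (0.0577%) did. The difference with the lowest p was that of C1qa, at -0.36 ± 0.378 (normal test from the DESeq2 estimates, adjusted p = 0.999), with an interval from -1.10 to 0.38. For Adgre1 it was 0.26 ± 0.297, with an interval from -0.32 to 0.84. For Cd5l it was -0.38 ± 0.531, and for Hmox1 -0.08 ± 0.692. The intervals are wide enough to hold differences of either sign for each of the 10.

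Other genes of these pathways were counted from lists of known function. The other macrophage genes had 11 of 18 below 0 in bone marrow (median -0.17) and 16 of 19 in spleen (median -0.14). For bone marrow 1 of the 18 passed in the authors' deposited table, Csf1r, the receptor for the macrophage growth factor CSF1 that monocytes also carry. It fell by 0.37 ± 0.0988 on the log2 scale (DESeq2 adjusted p = 0.0356, authors' deposited table). Mpeg1, a pore-forming protein of phagocytes, had -0.27 ± 0.0979 there by the authors' deposited table and did not pass (DESeq2 adjusted p = 0.247). In spleen none of the 19 passed, and Csf1r had -0.15 ± 0.166 in the authors' deposited table. The 2 of lowest p in spleen had opposite signs, with the Fc receptor genes Fcgr1 at 0.61 ± 0.299 and Fcgr4 at -0.45 ± 0.247 in the authors' deposited table. Folr2 was listed in neither tissue.

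Monocyte markers stood beside Csf1r and Adgre1 in bone marrow, where 11 of 12 were below 0 (median -0.31) and 2 passed under DESeq2 at 0.05 by the authors' deposited table, Ly6c2 at -0.33 ± 0.0794 and Ms4a4c at -0.60 ± 0.150. The summed approximate means of the list were 40108 in Cgas-/- and 46733 in dKO bone marrow. The part of monocytes in the Csf1r and Adgre1 values was not tested. The 2 relatives of Adgre1 were also below 0 in bone marrow, Adgre4 at -0.67 ± 0.246 and Adgre5 at -0.21 ± 0.118, without passing in the authors' deposited table. In spleen they had -0.10 ± 0.148 and 0.08 ± 0.0894 in the authors' deposited table.

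Around Slc40a1 and Hmox1, 22 genes that carry heme or iron were listed for bone marrow, with 11 below 0, a median of 0.00 and none past the test. The transferrin receptor gene Tfrc had 0.25 ± 0.0924 (DESeq2 adjusted p = 0.281) and the ferritin heavy chain gene Fth1 -0.17 ± 0.0765 (DESeq2 adjusted p = 0.445), by the authors' deposited table. In spleen 17 of 25 were below 0 (median -0.09) and none passed. Tfrc had -0.39 ± 0.188 and the ferroxidase gene Cp -1.05 ± 0.483 there in the authors' deposited table, both with an unadjusted p under 0.05. Erythroid markers, which include Tfrc, had 14 of 14 above 0 in bone marrow (median 0.40) and 14 of 14 below 0 in spleen (median -0.86). Their summed approximate means were 66327 in Cgas-/- and 36705 in dKO bone marrow, and 17682 with Cgas-/- and 26019 with dKO marrow in spleen. Only the globin gene Hbb-bt passed, for bone marrow (0.84 ± 0.223 by the authors' deposited table), and its near-identical copies make that value uncertain. The part of erythroid RNA in the iron gene values was not tested.

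Hmox1 and Spic can be held down by BACH1. Regulators and targets of the antioxidant response, with Bach1 itself and Keap1 among them, had 8 of 12 above 0 in bone marrow (median 0.03). In spleen 5 of 13 were above 0 (median -0.05), and none passed in either tissue. The glutathione synthesis gene Gclc had 0.34 ± 0.0991 (DESeq2 adjusted p = 0.0927) and the cystine transporter gene Slc7a11 0.46 ± 0.187 (DESeq2 adjusted p = 0.349) for bone marrow by the authors' deposited table. Slc7a11 had 0.62 ± 0.337 and Nqo1 -0.86 ± 0.550 in spleen in the authors' deposited table, both with a mean under 20. Ets and interferon regulatory factors of macrophages had 6 of 11 above 0 in bone marrow and 9 of 11 in spleen, again with none past the test. Irf8 was at 0.23 ± 0.0741 and Ets1 at 0.24 ± 0.104 in bone marrow, and Spib, a relative of Spic, at 0.12 ± 0.0781 and Cebpb at 0.27 ± 0.196 in spleen, all in the authors' deposited tables.

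Beside the C1q genes, other complement components and receptors had 13 of 18 below 0 in bone marrow (median -0.11) and 12 of 19 in spleen (median -0.10), with none past the test. The authors' deposited tables put the central component C3 at -0.20 ± 0.0765 for bone marrow and -0.41 ± 0.214 for spleen. Serping1, which encodes the inhibitor of C1, was at -0.94 ± 0.389 for bone marrow (DESeq2 adjusted p = 0.372), and Cd93 at -0.23 ± 0.117 for spleen, by the authors' deposited tables. Beside Axl, receptors and ligands for the uptake of dying cells had 8 of 14 below 0 in bone marrow (median -0.07) and 8 of 16 in spleen (median 0.00), and none passed. Lrp1 had -0.26 ± 0.166 and Stab1 0.35 ± 0.299 in bone marrow, and Itgav 0.20 ± 0.133 and Havcr1 0.32 ± 0.246 in spleen, in the authors' deposited tables. Beside Cd5l, whose gene responds to the oxysterol receptor LXR in macrophages, LXR targets and lipid genes had 7 of 10 below 0 in bone marrow (median -0.17) and 6 of 10 in spleen (median -0.05). None passed, with Apoe at -0.26 ± 0.118 and Abcg1 at -0.24 ± 0.167 in bone marrow and Nr1h3, an LXR gene, at -0.45 ± 0.286 and Lpcat3 at -0.11 ± 0.154 in spleen in the authors' deposited tables.

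Beside Vcam1, its integrin partners and other adhesion genes had 6 of 8 below 0 in bone marrow (median -0.12). Itgb2, the shared chain of the leukocyte integrins, passed there by the authors' deposited table at -0.32 ± 0.0802 (DESeq2 adjusted p = 0.0237). Itgal, which pairs with it, had -0.27 ± 0.0794 by the authors' deposited table (DESeq2 adjusted p = 0.0958). In spleen 5 of 9 were below 0 (median -0.01) and none passed, with Itgb2 at -0.08 ± 0.0709 and Icam1 at -0.17 ± 0.150 in the authors' deposited table. Stromal markers, another source of Vcam1, had summed approximate means of 656 in Cgas-/- and 760 in dKO bone marrow over 6 listed genes. In spleen 10 were listed, with sums of 48.5 with Cgas-/- and 68.3 with dKO marrow and none with a mean of at least 20. The chemokine gene Cxcl12 led them in bone marrow (-0.33 ± 0.128, DESeq2 adjusted p = 0.316, authors' deposited table). In spleen Cxcl12 had -0.61 ± 0.370 and Dcn -0.86 ± 0.534 in the authors' deposited table. Endothelial markers had summed approximate means of 598 and 599 in bone marrow and 1201 and 1214 in spleen, and Pecam1, which leukocytes also express, made up most of both. Without Pecam1 the sums were 197 and 205 over 6 genes in bone marrow and 105 and 136 over 8 genes in spleen, where 6 of the 8 were below 0. The 2 of lowest p in spleen were the VEGF receptor gene Kdr at -0.65 ± 0.303, with an unadjusted p under 0.05, and Eng at -0.62 ± 0.432, by the authors' deposited table. None of either list passed, and their part in the Vcam1 values was not tested.

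Markers of the other splenic macrophages were mostly low in spleen. The marginal zone markers Marco and Cd209b had means of 44.7 and 1.28, and the metallophilic marker Siglec1 had 1.95, by the authors' deposited table. Their log2 fold changes of -1.02 ± 0.605, 1.05 ± 1.35 and 0.38 ± 0.938 in the authors' deposited table did not pass. Cd209a, which dendritic cells also express, had a mean of 36.2 there and 70.2 in bone marrow, with log2 fold changes of -0.14 ± 0.261 and 0.08 ± 0.223 by the authors' deposited tables. Siglec1 had -0.53 ± 0.716 in bone marrow at a mean of 7.31, and Marco and Cd209b were not listed there. Treml4 (mean 117) and Itgad (mean 103), markers in use for red pulp macrophages, were named here after their values were seen. They had -0.12 ± 0.234 and -0.22 ± 0.260 in spleen by the authors' deposited table. Over the whole list of other red pulp and resident macrophage genes, means in spleen ran from 1.69 (Vsig4) to 893 (Sirpa). Some, such as Timd4 (10.1) and Fcgr1 (31.7), lay under that of Marco.

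The growth factors of macrophages showed no call in either tissue. Csf1 had -0.05 ± 0.232 for bone marrow and 0.32 ± 0.212 for spleen, and Il34, with a mean of 8.05 and 2.62, had -0.39 ± 0.625 and -0.46 ± 0.893, by the authors' deposited tables. Among the other cell types, neutrophil markers had 9 of 10 below 0 in bone marrow (median -0.16) and 8 of 10 in spleen (median -0.27). T cell markers had 4 of 7 below 0 in bone marrow (median -0.05) and 7 of 7 above 0 in spleen (median 0.07). B cell markers had 4 of 6 above 0 in each tissue, with medians of 0.03, and endothelial markers 4 of 7 in bone marrow (median 0.02) and 3 of 9 in spleen (median -0.28). None of these passed. Monocyte markers had 8 of 12 above 0 in spleen (median 0.03), also with none past the test. Dendritic cell markers had 8 of 9 above 0 in bone marrow (median 0.10), where the cytokine receptor gene Flt3 passed at 0.72 ± 0.153 by the authors' deposited table, and 3 of 9 in spleen (median -0.11), where none passed. Immediate early genes, which dissociation of a tissue can induce, had 5 of 10 above 0 in bone marrow (median 0.01) and 10 of 10 in spleen (median 0.52), where Fos passed at 1.09 ± 0.158 by the authors' deposited table. In spleen 9 of these 10 had an unadjusted p under 0.05 (DESeq2), a level that 3.02% of all genes reached. The part of dissociation in the values of the red pulp macrophage genes was not tested.

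**Figure D5:**
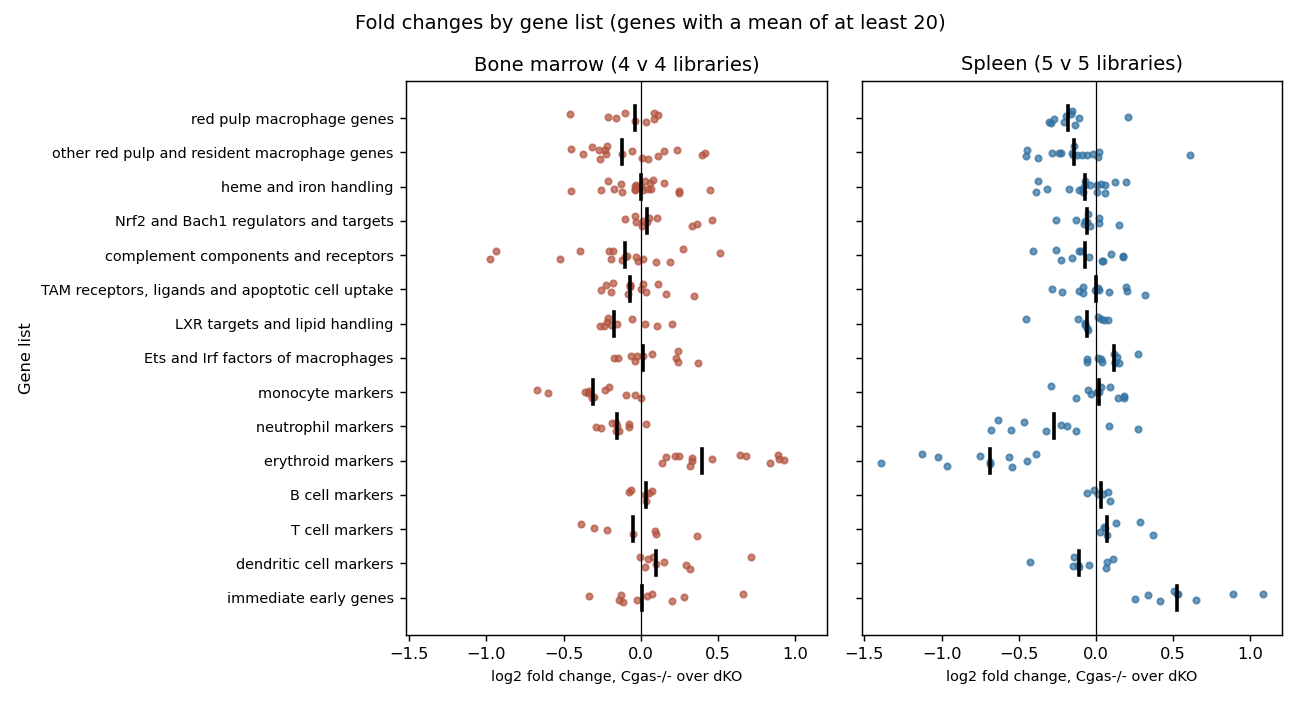
Log2 fold change (horizontal axis, Cgas-/- over dKO) of each gene with a mean of at least 20 in each list, in bone marrow (left) and spleen (right), with black bars at the medians. The red pulp macrophage genes lie around 0 in bone marrow and slightly below it in spleen, while erythroid markers have medians of 0.40 and -0.69.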

How the data were processed

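QuantSeq libraries (18, of which 8 bone marrow and 10 spleen) were grouped by their titles. Tools of the authors were, per the submitters' processing notes, bcl2fastq 1.8.4, STAR 2.6.1, Partek and DESeq2, with the build mm10. No source used here names the annotation, counting strand or gene filter. Per the file headers, the deposited tables hold, by gene, the mean normalized count (a signal the authors averaged over all libraries of a tissue), a log2 fold change with its standard error, the Wald score, a ranking score, the p-value and the adjusted p-value. Recomputing the score, p-value and adjusted p-value from the deposited columns gave the same values. Fold changes run Cgas-/- over dKO, per the file names and the values of Cgas and Trex1. Depth is unknown.

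Computed here were 95% normal intervals, approximate group means (the deposited mean and fold change solved for 2 groups of equal size), the spread between libraries (the squared standard error less the counting part, with size factors taken as 1), the rank of the standard error among 200 genes of nearest mean, and the difference between tissues. The spread and the rank of the standard error were chosen after the values were seen. The spread rests on the authors' DESeq2 dispersions, which are moderated across genes, so it is an approximation. The bone marrow and spleen tables were joined by symbol (13776 genes) and RefSeq synonym (78). The test of the difference, run on simulated data with these 13776 genes, recovered 72.7% of changes of 1 and 98.1% of changes of 2 on the log2 scale. No such rate was computed for the red pulp macrophage genes, so these rates do not tell how often a change in those would be found. Standard errors of the difference for the red pulp macrophage genes ran from 0.297 (Adgre1) to 0.692 (Hmox1). In the spleen table Cgas is listed under an older symbol.

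The 10 genes and 22 lists were chosen with earlier results of these data known. The rule for named genes took the 10 genes, the targeted genes, the called genes and the 2 of lowest p of each list in each tissue, and all genes of lists under 5. For lists of other cell types and for immediate early genes the text gives counts and medians, and of the genes so picked mainly those called. Lists are described by counts and medians, without a set test. Nothing in the labels ties each library to its own mouse, so the spread behind the p-values is that among libraries and could be technical. Python 3.11.15, pandas 2.3.3, numpy 2.4.6, scipy 1.17.1, statsmodels 0.14.6 and matplotlib 3.10.9 were used.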

Additional observations from a re-analysis of the deposited data

Results flagged for a closer look

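Of the genes named above, 2 had a log2 fold change that differed between the bone marrow and spleen comparisons by the normal test of the difference. The comparisons differ in transplantation and hosts as well as in tissue, and the spleen groups differed in Y-linked RNA. The part of each in the values below was not tested. For Fos, an AP-1 subunit gene in the list of immediate early genes, spleen minus bone marrow was 1.20 ± 0.236 (adjusted p = 0.00101 from the DESeq2 estimates over 13854 genes), from -0.11 in bone marrow to 1.09 in spleen. For Trex1 it was 1.26 ± 0.267 (adjusted p = 0.00434), from 1.45 to 2.71. None of the 10 red pulp macrophage genes was among the 8 genes past this test.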

How the results depend on the processing

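The count of red pulp macrophage genes past the test was 0 in bone marrow, spleen and the difference between tissues, as deposited and with p-values adjusted over genes with a mean of at least 20, with a threshold of 0.1, or with fold changes centred on the median of genes with a mean of at least 20 (a shift of -0.00287 in bone marrow and 0.00565 in spleen). Hmox1 in bone marrow lies under that mean and drops out of those tests. The count was 0 too in bone marrow and spleen when adjusted over the genes in both tables. With an unadjusted p under 0.05 it was 1 in bone marrow, Adgre1, and 0 in spleen. Over these alternatives the adjusted p of Adgre1 in bone marrow ranged from 0.249 to 0.287. Under centring, all 20 fold changes kept their sign. The count in the widest 5% of standard errors was 4 in bone marrow and 9 in spleen, also with 100 or 500 neighbours, an alternative added after seeing the data. No paired analysis was possible because the tables hold no values per library, and for the same reason no library could be left out.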
